A study of Mus musculus with 39 samples.

Results

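The 7 genes described here carry fatty acid synthesis from citrate to unsaturated fatty acids: the enzyme genes Acly, Acaca, Fasn, Elovl6, Scd1 and Scd2, and Srebf1, which encodes a regulator of the pathway. They were taken by gene symbol, and all 7 were found among the 16979 genes of the table of the labelling and inhibition experiments and among the 13938 genes of the table of the fixation experiment. RNA of mouse hindlimb muscle and of the stem cells purified from it was sequenced in 39 libraries of 10 groups, a design that sets RNA made in the living animal beside RNA found after cell isolation. In 2 groups of 4 libraries, stem cells were isolated in the presence of alpha-amanitin, which blocks RNA polymerase II, or of DMSO alone. In 3 groups of 4, Pax7CreER/+: UPRTHA/+ mice received 4tU (4-thiouracil) 6 h before harvest, every 12 h for 1 d or every 12 h for 4 d, and labelled RNA was pulled down from hindlimb muscle. Another group of 4 held labelled RNA of stem cells to which 4tU was given during the roughly 6 h of isolation (the isolation label). The total RNA of isolated stem cells and of whole hindlimb muscle, 4 libraries each, is RNA from before the pull-down. The labels list the isolated cells as having no 4tU, while the protocol describes 4tU being given during isolation, so whether they held it is not settled. The last groups were stem cells sorted after perfusion of the mouse with 1% paraformaldehyde (fixed cells, 4 libraries) or without fixation (unfixed cells, 3 libraries). The labels do not say whether replicates came from separate animals, and p-values therefore refer to the spread between these libraries, which may be technical.

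Acly splits citrate into acetyl-CoA, Acaca makes malonyl-CoA from it, and Fasn joins these units into palmitate. Elovl6 lengthens palmitate, and the stearoyl-CoA desaturases Scd1 and Scd2 put a double bond into the products. Srebf1 encodes SREBP-1, a membrane-bound transcription factor that, once cut free, raises the transcription of these enzymes, and insulin and the nuclear receptor LXR are known to raise Srebf1 itself. In mice, Scd1 is known for its high level in fat and liver and Scd2 for its level in brain.

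On the mm10 genome of the files, 4 of the 7 genes lie on chromosome 11 and 2 on chromosome 19. Scd2 (chromosome 19, 44293676 to 44306864, plus strand) and Scd1 (44394451 to 44407709, minus strand) are neighbours, 87586 bp apart. On chromosome 11 lie Srebf1 (60199089 to 60222581, minus strand), Acaca (84129672 to 84401651, plus strand), Acly (100476353 to 100528000, minus strand) and Fasn (120805940 to 120824178, minus strand). Elovl6 lies on chromosome 3 (129532386 to 129638495, plus strand). Every value is for the whole gene model. Scd1 and Scd2 are similar in sequence, but only 123 of the 4888 words of 101 bases in Scd1 transcripts, and 47 of the 5461 in Scd2 transcripts, also occur in another Scd gene. An exon of Srebf1 shares 109 bp with Rai1 on the other strand, and the use of strand in counting is not given in the sources read, so the Srebf1 values are uncertain by that overlap.

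RefSeq promoter windows (GRCm38.p6, 250 bases before to 50 after a start) were matched for 5 of the 7 genes, 7 windows in all. The windows of Fasn (chr11:120824498-120824797, minus strand) and of the start of Srebf1 farthest upstream (chr11:60222532-60222831, minus strand) are shown because these genes rose together with label time below. The Fasn window lies wholly upstream of the measured Fasn gene model, whose minus-strand start is at 120824178, so it is not the start of that model. The Acaca window (84195188 to 84195487) lies inside its gene model, which starts at 84129672. The values are for whole genes and do not tell which of the 3 starts of Srebf1 was used. A link of these windows to the rise was not tested. Capitals mark CCAAT on either strand, so ATTGG as well, with 3 matches in the Fasn window, of which 2 overlap, and 1 in the Srebf1 window.
Fasn: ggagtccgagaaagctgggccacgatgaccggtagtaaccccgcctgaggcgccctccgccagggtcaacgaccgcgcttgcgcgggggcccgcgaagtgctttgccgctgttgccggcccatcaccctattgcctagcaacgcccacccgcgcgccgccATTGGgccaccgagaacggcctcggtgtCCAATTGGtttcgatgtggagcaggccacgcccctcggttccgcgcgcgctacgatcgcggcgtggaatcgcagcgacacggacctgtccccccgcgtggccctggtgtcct
Srebf1: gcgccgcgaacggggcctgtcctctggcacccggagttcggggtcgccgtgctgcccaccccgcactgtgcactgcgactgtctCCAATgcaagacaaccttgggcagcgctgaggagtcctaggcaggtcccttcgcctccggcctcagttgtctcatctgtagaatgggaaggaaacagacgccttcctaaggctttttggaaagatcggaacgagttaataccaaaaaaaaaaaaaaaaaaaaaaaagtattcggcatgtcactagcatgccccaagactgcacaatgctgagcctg
CCAAT occurred on either strand in 4 of the 7 windows, those of Fasn, Acly and 2 of the 3 starts of Srebf1, and in 37.4% of all 32851 windows. The GC box GGGCGG, searched on both strands like the others, occurred in 3 of the 7 windows (Acly and 2 starts of Srebf1) and in 35.7% of all. The E-box CACGTG and the sterol regulatory element core TCACNCCAC were in none of the 7 windows, against 7.15% and 1.24% of all, which says only that these letters are not in these stretches.

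Values are RPKM as deposited, a read count per length of gene model and per size of library. Reads recovered from them numbered 2321903 to 7742378 per library in the isolation label, 15307952 to 102619074 in the other groups of the labelling table and 22704011 to 25045404 in the fixation table. The lowest count behind a value of the 7 genes was 39 reads. Stem cell, fibre and fat cell genes were read as a check of the labels. Pax7, the defining gene of muscle stem cells, stood at 0.277 to 0.402, 0.115 to 0.2197 and 0.1303 to 0.234 RPKM in the 6 h, 1 d and 4 d labels, 16.9 to 19.4 RPKM in isolated cells and 0.0768 to 0.1001 RPKM in whole muscle. The fibre gene Acta1 stood at 28765 to 31295, 58548 to 62206 and 58950.3 to 62421 RPKM in the same labels, 22.4 to 97.1 RPKM in isolated cells and 48010.3 to 51213 RPKM in whole muscle. The in vivo labelled RNA, which the labels list as stem cell RNA, thus held abundant fibre transcripts and far less Pax7 than isolated cells. The authors' library scaling factors ran from 0.612 to 1.95 across the labelling table, so each fold change is given with the median of all genes in its comparison.

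Within the 8 groups of the labelling table, by the ratio of the highest to the lowest group mean, Scd1 varied most and Elovl6 and Acaca least. Scd1 group means ran between 15.1 and 443 RPKM, lowest in isolated cells and highest in whole muscle. From the top, its order was whole muscle, 1 d label, 6 h label, 4 d label, isolation label, alpha-amanitin cells, DMSO cells and isolated cells. The libraries of neighbours in that order overlapped except between whole muscle and the 1 d label, between the 6 h and 4 d labels, and between DMSO cells and isolated cells. In the same 8 groups Scd2 ran the other way, with group means between 8.296 RPKM in the 6 h label and 55.7 RPKM in DMSO cells. All isolated cell groups that were not pulled down lay above whole muscle for Scd2, and all 3 in vivo labels lay below it. Neighbours of Scd2 overlapped between isolated cells and alpha-amanitin cells, between the isolation label and whole muscle, and between the 1 d and 6 h labels, and stood apart elsewhere. The plot of the levels in every library shows both patterns.

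**Figure D1:**
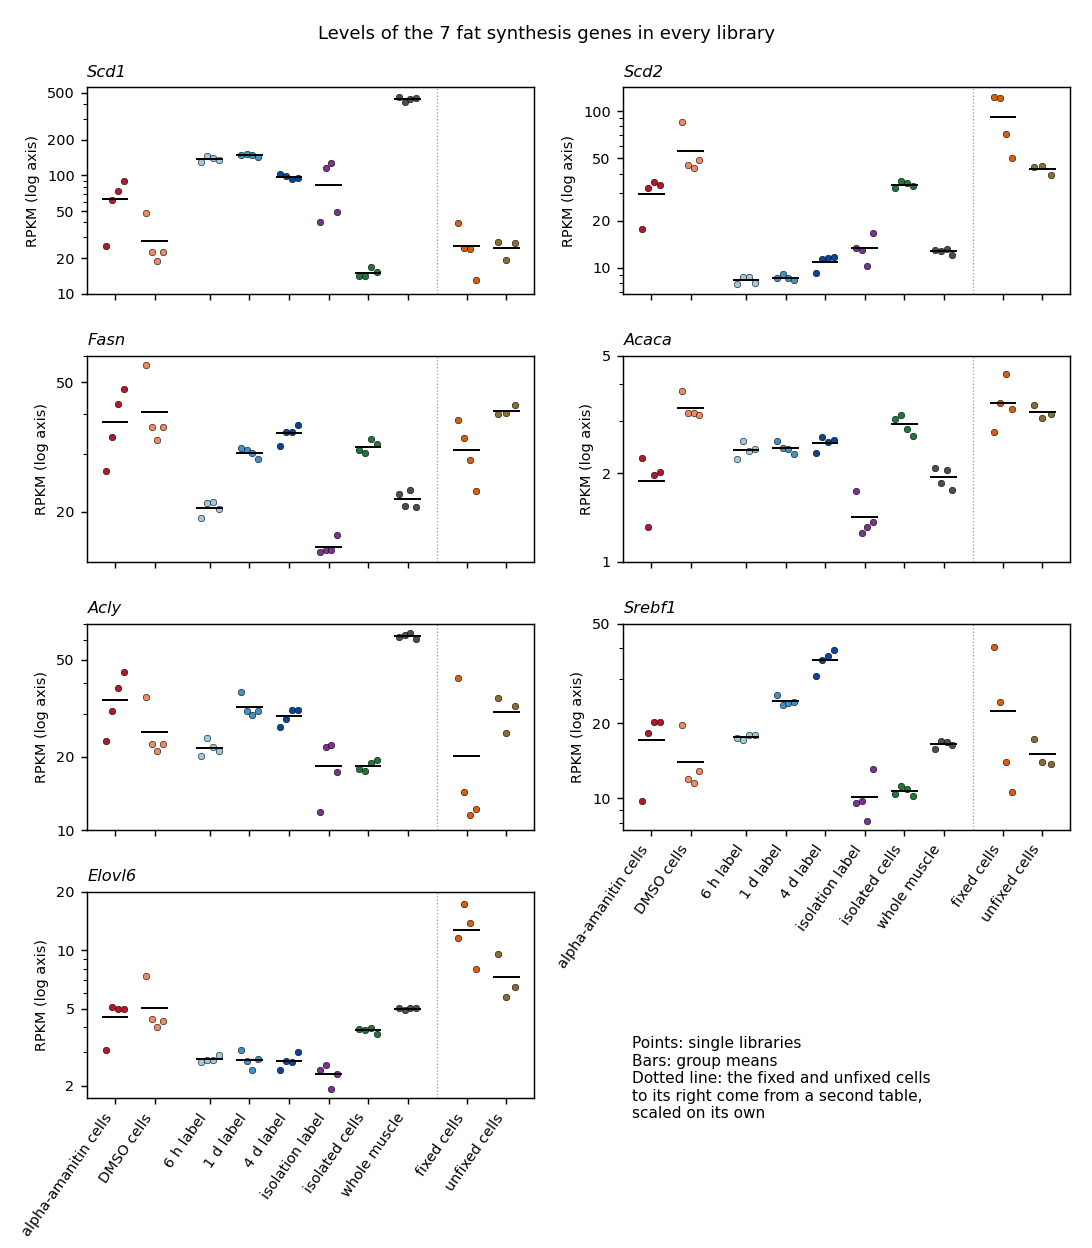
RPKM of the 7 genes on log axes, 1 point per library and a bar for each group mean, in 8 groups of 4 libraries and, right of the dotted line, the fixed (4) and unfixed (3) cells of the other table. Scd1 averaged 15.1 RPKM in isolated cells and 443 RPKM in whole muscle, while Scd2 averaged 33.99 RPKM in isolated cells and 12.8 RPKM in whole muscle.

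Again in the labelling table alone, Fasn group means ran between 15.6 RPKM in the isolation label and 40.5 RPKM in DMSO cells, and Acly means between 18.3 RPKM in the isolation label and 62.5 RPKM in whole muscle. For Fasn, whole muscle and the 6 h label overlapped below all groups but the isolation label, which stood apart at the bottom, and the other 5 groups overlapped their neighbours. Whole muscle stood above every other group for Acly, and no other neighbours in its order were apart except the 6 h label and isolated cells. Srebf1 had its highest mean in the 4 d label at 35.8 RPKM, next the 1 d label and then the 6 h label, with no overlap between these 3 groups, and its lowest in the isolation label at 10.1 RPKM. Elovl6 means lay between 2.29 and 5.03 RPKM and Acaca means between 1.42 and 3.33 RPKM, the isolation label lowest and DMSO cells highest for both genes. The 4 groups of pulled-down RNA lay below the other 4 for Elovl6, with overlaps inside each set. Acaca was highest in DMSO and isolated cells, next in the 3 in vivo labels and lowest in the remaining groups, its neighbours standing apart only between these sets. On this scale, which is per length, Scd1 made up 65.3 ± 0.452%, 59.5 ± 1.11% and 45.8 ± 2.94% of the summed level of the 7 genes in the 6 h, 1 d and 4 d labels. It made up 12.9 ± 0.693% in isolated cells and 78.6 ± 0.972% in whole muscle (SD, n = 4 each).

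The share of Scd2 in the summed level of both desaturases differed between groups. It was 33.6 ± 5.64% in alpha-amanitin cells and 67.2 ± 2.503% in DMSO cells. It was 5.68 ± 0.126%, 5.52 ± 0.119% and 10.1 ± 1.27% in the 6 h, 1 d and 4 d labels, 17.02 ± 9.58% in the isolation label, 69.3 ± 1.79% in isolated cells and 2.81 ± 0.171% in whole muscle (SD, n = 4 each). In the fixation table it was 78.4 ± 3.904% in fixed cells (n = 4) and 63.7 ± 5.62% in unfixed cells (n = 3). The shares of alpha-amanitin cells did not overlap those of DMSO cells, those of the isolation label did not overlap those of isolated cells, and those of fixed cells did not overlap those of unfixed cells. Those of the isolation label, 7.38 to 25.4%, overlapped those of the 4 d label, 8.24 to 10.97%.

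**Figure D2:**
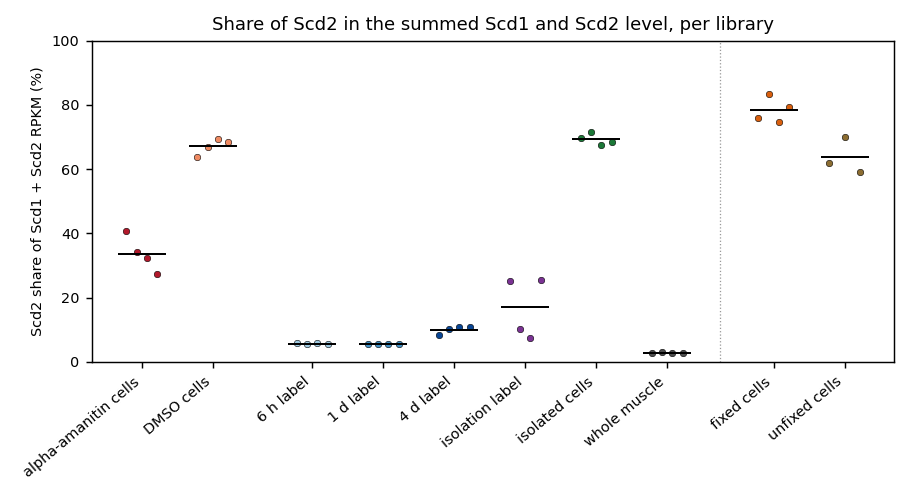
Share of Scd2 in the sum of Scd1 and Scd2 RPKM (percent, linear axis from 0 to 100), 1 point per library and a bar for each group mean. Group means are 33.6% in alpha-amanitin cells and 67.2% in DMSO cells, 17.02% in the isolation label and 69.3% in isolated cells, and 78.4% in fixed cells and 63.7% in unfixed cells.

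Isolated stem cells, set beside whole muscle, held far less Scd1 and less Acly and more Scd2. Scd1 stood at 14.2, 14.1, 16.7 and 15.4 RPKM in the isolated cells and at 465, 415, 442 and 451 RPKM in whole muscle, 28.5-fold lower, a log2 change of -4.83 (SE 0.06, adjusted p = 2.32e-15). Scd2 stood at 32.5, 35.6, 34.6 and 33.3 RPKM in isolated cells and at 13.1, 12.8, 13.2 and 12.1 RPKM in whole muscle, 2.59-fold higher, a log2 change of 1.37 (SE 0.04, adjusted p = 7.32e-12). The isolated cells were thus low in Scd1 and high in Scd2, with no overlap between groups. Fold changes were computed from log2(RPKM + 0.5), a scale that understates those of weakly expressed genes, and in bulk RNA fewer cells of a type and less RNA per cell cannot be told apart.

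Fasn, the synthase itself, had 30.9, 30.2, 33.3 and 32.2 RPKM in isolated cells and 22.7, 20.8, 23.3 and 20.6 RPKM in whole muscle and was 1.44-fold higher in the cells, a log2 change of 0.52 (SE 0.05, adjusted p = 4.61e-07). Acaca rose to 2.93 ± 0.214 RPKM in isolated cells, against 1.93 ± 0.155 RPKM in whole muscle, a log2 change of 0.49 (SE 0.06, adjusted p = 1.18e-05). Acly, which supplies both with acetyl-CoA, fell to 17.7, 17.5, 18.8 and 19.3 RPKM in isolated cells, against 62.1, 62.8, 64.4 and 60.9 RPKM in whole muscle, a log2 change of -1.74 (SE 0.04, adjusted p = 5.73e-13). Acly thus ran against Fasn and Acaca, and none of the 3 overlapped between groups. Srebf1 had 10.4, 11.2, 10.9 and 10.2 RPKM in isolated cells and 15.7, 17.02, 16.8 and 16.3 RPKM in whole muscle, a log2 change of -0.60 (SE 0.04, adjusted p = 2.40e-08). Elovl6 had 3.92, 3.89, 3.98 and 3.72 RPKM in isolated cells and 5.02, 4.901, 5.02 and 5.02 RPKM in whole muscle, a log2 change of -0.33 (SE 0.04, adjusted p = 8.20e-06). Srebf1 and Elovl6 lay lower in every isolated library, but with library sizes from all reads, which moved the median of all genes by 1.41, both turned to higher, 0.96 and 1.13. With the same sizes Acly was -0.15 and Scd1 -3.24, both still called lower, and Scd2, Fasn and Acaca were 2.95, 2.11 and 1.84, all called higher.

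Of the 7 genes, 3 were called higher in isolated cells and 4 lower, where 48.8% and 46.5% of the 14813 genes tested were called higher and lower. The members' median log2 change was -0.33, beside 0.06 for all genes tested. All 10 adipocyte markers were lower in isolated cells, with a summed level of 95.7 to 129 RPKM there and 20054 to 21212 RPKM in whole muscle. Adipoq stood at 0.0972 to 0.346 RPKM in isolated cells and 153 to 165 RPKM in whole muscle. The 10 fibre markers summed to 74.1 to 249 RPKM in isolated cells and 113658 to 119414 RPKM in whole muscle. The part of these markers' cells in the Scd1 and Acly differences was not tested.

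Around the 7 genes, the carbon and NADPH supply enzymes were lower in isolated cells in 8 of 8, and fatty acid oxidation genes in 13 of 14 with 1 higher. Of 16 triglyceride and phospholipid assembly genes 12 were lower and 4 higher, among them Dgat2, which makes triglyceride (3.61 ± 0.2995 RPKM in isolated cells and 98.5 ± 1.12 RPKM in whole muscle, log2 change -4.59, adjusted p = 1.27e-15). Thrsp, a lipogenic gene that often moves with Fasn, stood at 4.62 ± 0.3599 RPKM in isolated cells and 377 ± 18.6 RPKM in whole muscle (log2 change -6.21, adjusted p = 3.24e-16). Cholesterol synthesis genes were split, with 12 higher and 10 lower of 22. Srebf2, the sister gene of Srebf1 that drives cholesterol synthesis, had 40.9 ± 0.977 RPKM in isolated cells and 4.84 ± 0.238 RPKM in whole muscle (log2 change 2.96, adjusted p = 7.46e-15), the opposite direction to Srebf1. The elongase Elovl4 had 13.1 ± 0.482 RPKM in isolated cells and 0.146 ± 0.0192 RPKM in whole muscle (log2 change 4.401, adjusted p = 1.62e-15), where Elovl6 was lower. Since Srebf1 and Elovl6 turned to higher with library sizes from all reads, these contrasts of direction depend on the scaling.

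RNA pulled down after label in the animal carried less Scd1, Acly and Elovl6 than whole muscle at every label time. It carried more Srebf1 and Fasn at 1 d and 4 d. No pull-down of RNA without label is among the libraries, so how much of the in vivo labels was unlabelled RNA was not tested. The 3 comparisons share the 4 whole-muscle libraries, so their values are given side by side. Scd1 had 129, 147, 141 and 134 RPKM in the 6 h label, 149.7, 151, 149 and 142 RPKM in the 1 d label and 103, 99.3, 93.5 and 96.1 RPKM in the 4 d label. Against the 415 to 465 RPKM of whole muscle it was 3.21-fold lower at 6 h, a log2 change of -1.68 (SE 0.05, adjusted p = 2.42e-12), 2.99-fold lower at 1 d, a log2 change of -1.58 (SE 0.04, adjusted p = 1.68e-11), and 4.51-fold lower at 4 d, a log2 change of -2.17 (SE 0.04, adjusted p = 3.98e-12). Every labelled library lay under every whole-muscle library.

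Srebf1 had 17.5, 17.1, 18.002 and 17.9 RPKM in the 6 h label, 26.02, 23.6, 24.2 and 24.3 RPKM in the 1 d label and 31.02, 35.7, 37.2 and 39.2 RPKM in the 4 d label. Whole muscle stood at 15.7 to 17.02 RPKM. It was 1.48-fold higher at 1 d, a log2 change of 0.56 (SE 0.04, adjusted p = 5.14e-08), and 2.13-fold higher at 4 d, a log2 change of 1.09 (SE 0.06, adjusted p = 4.54e-09). At 6 h it was 1.07-fold higher, a log2 change of 0.10 (SE 0.04, adjusted p = 0.0258), a call that ended without whole muscle replicate 1 or 4 (adjusted p = 0.0772 and 0.0536) or 6 h label replicate 3 or 4 (0.0725 and 0.0677), and in a fit of all groups (0.616). With median-of-ratios scaling, which moved the median of all genes by -0.20, the 6 h change turned to -0.12.

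Fasn stood at 19.2, 21.2, 21.4 and 20.4 RPKM in the 6 h label, 31.3, 30.8, 30.3 and 28.99 RPKM in the 1 d label and 31.9, 35.1, 35.2 and 36.9 RPKM in the 4 d label, beside 20.6 to 23.3 RPKM in whole muscle. At 6 h it was not called, a log2 change of -0.09 with a 95% confidence interval of -0.19 to 0.02 (adjusted p = 0.106), but it was called lower with median-of-ratios scaling, -0.31 (adjusted p = 3.77e-05), and higher when sizes came from all reads, 0.26 (adjusted p = 0.000488). It was higher at 1 d, a log2 change of 0.46 (SE 0.05, adjusted p = 8.94e-07), and at 4 d, a log2 change of 0.66 (SE 0.05, adjusted p = 1.26e-07). Acaca was slightly higher at each time, with 2.398 ± 0.145, 2.43 ± 0.101 and 2.53 ± 0.128 RPKM at 6 h, 1 d and 4 d and 1.93 ± 0.155 RPKM in whole muscle (log2 change 0.25, 0.27 and 0.32, adjusted p = 0.0014, 0.000702 and 0.000208). The 6 h call of Acaca ended with median-of-ratios scaling (log2 change 0.07, adjusted p = 0.242).

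Acly was lower in the labelled RNA, with 20.2, 23.9, 21.9 and 21.005 RPKM at 6 h, 36.9, 30.8, 29.8 and 30.8 RPKM at 1 d and 26.5, 28.6, 30.9 and 31.2 RPKM at 4 d, beside 60.9 to 64.4 RPKM in whole muscle. Its log2 changes were -1.51, -0.96 and -1.08 (adjusted p = 7.60e-12, 5.90e-09 and 7.82e-10). Elovl6 was lower by nearly the same amount each time, with 2.73 ± 0.0913, 2.73 ± 0.2696 and 2.68 ± 0.235 RPKM and 4.99 ± 0.05795 RPKM in whole muscle (log2 change -0.76, -0.77 and -0.79, adjusted p = 1.80e-09, 4.05e-08 and 2.64e-08). Scd2 had 7.83, 8.67, 8.73 and 7.94 RPKM at 6 h, 8.63, 9.07, 8.55 and 8.35 RPKM at 1 d and 9.23, 11.3, 11.5 and 11.7 RPKM at 4 d, beside 12.1 to 13.2 RPKM in whole muscle. It too was lower, with log2 changes of -0.60, -0.54 and -0.22 (adjusted p = 6.30e-08, 8.44e-08 and 0.00765). At 4 d the change of Scd2 was close to the median of all genes tested, -0.21. Scd2 at 4 d was no longer called under sizes from all reads (adjusted p = 0.668) and in a fit of all groups (0.3).

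At 6 h, 2 of the 7 genes were called higher and 4 lower, where 45.6% and 44.4% of all genes tested were. At 1 d, 3 were higher and 4 lower, beside 28.2% and 54.7% of all genes, and at 4 d again 3 and 4, beside 28.1% and 56.4%. The members' median log2 changes were -0.60, -0.54 and -0.22 at 6 h, 1 d and 4 d, and those of all genes tested 0.02, -0.19 and -0.21. The adipocyte markers summed to 6205 to 6430.1, 7273 to 8217 and 7756 to 7977 RPKM in the labels and 20054 to 21212 RPKM in whole muscle, with 5, 9 and 8 of 10 lower and 4, 1 and 2 higher. Their part in the Scd1 and Acly differences was not tested. Acacb, the paralog of Acaca whose malonyl-CoA is known to restrain fatty acid oxidation in muscle, was higher in each label, 16.3 ± 0.105, 22.9 ± 0.886 and 18.6 ± 0.276 RPKM beside 8.36 ± 0.379 RPKM in whole muscle (adjusted p = 1.24e-10, 5.18e-11 and 1.04e-10). Of the cholesterol genes tested, 15 of 21, 15 of 18 and 13 of 18 were lower and 5, 2 and 2 higher. Fdps, of the mevalonate pathway, had 23.9 ± 1.62 RPKM at 6 h and 63.8 ± 1.01 RPKM in whole muscle. Insig2, which holds SREBP precursors in the endoplasmic reticulum, had 33.4 ± 0.961 RPKM at 1 d, 33.1 ± 1.65 RPKM at 4 d and 71.1 ± 3.39 RPKM in whole muscle (adjusted p = 1.84e-10 and 3.42e-10), lower where Srebf1 was higher.

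**Figure D3:**
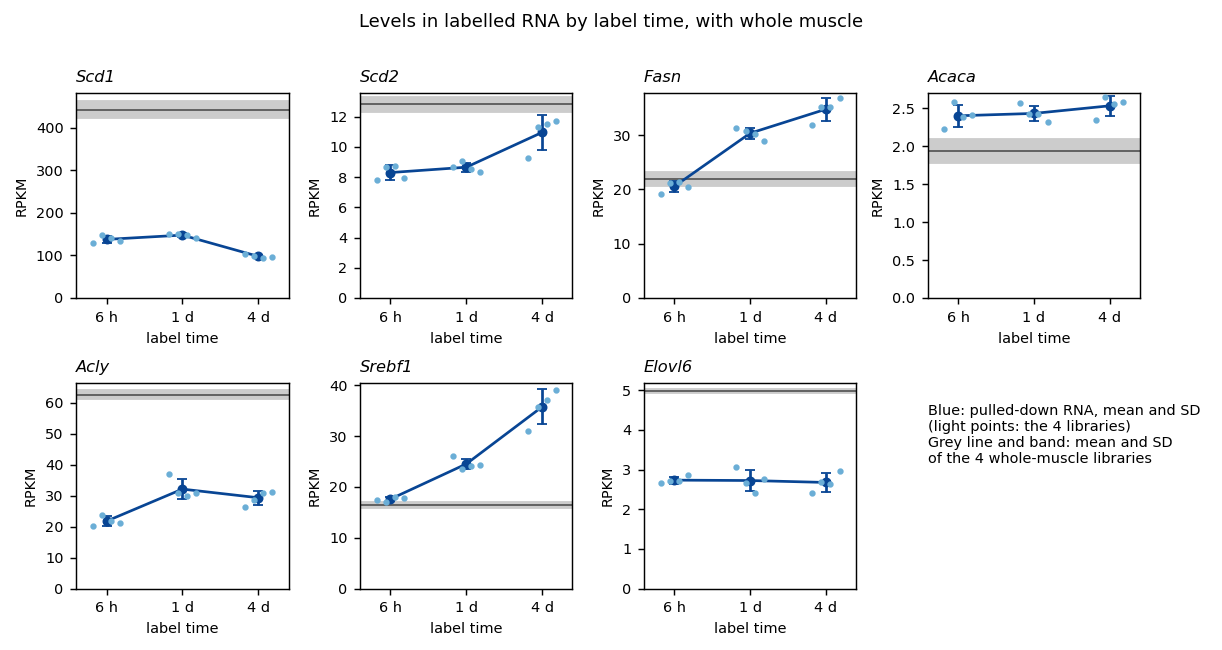
RPKM of each gene (linear axes from 0) in RNA pulled down after label for 6 h, 1 d and 4 d. Blue marks the mean and SD of 4 libraries, and a grey line and band those of 4 whole-muscle libraries. Srebf1 reaches 35.8 RPKM at 4 d, and Scd1, Scd2, Acly and Elovl6 stay under the whole-muscle band at each time.

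With longer label, Srebf1 and Fasn rose at both steps. Srebf1 was 1.38-fold higher in the 1 d label than in the 6 h label, a log2 change of 0.47 (SE 0.04, adjusted p = 1.94e-07), and 1.45-fold higher in the 4 d label than in the 1 d label, a log2 change of 0.53 (SE 0.06, adjusted p = 2.24e-05). Fasn was 1.47-fold higher at 1 d than at 6 h, a log2 change of 0.55 (SE 0.04, adjusted p = 6.89e-08), and 1.14-fold higher at 4 d than at 1 d, a log2 change of 0.19 (SE 0.05, adjusted p = 0.00524). Groups did not overlap at either step for either gene. Acly rose at 1 d against 6 h, a log2 change of 0.55 (SE 0.07, adjusted p = 5.10e-06), and was not called at 4 d against 1 d, a log2 change of -0.13 with a 95% confidence interval of -0.28 to 0.03 (adjusted p = 0.147). Scd1 was not called at 1 d against 6 h, a log2 change of 0.10 with a 95% confidence interval of 0.003 to 0.20 (adjusted p = 0.0519), and fell 1.51-fold at 4 d against 1 d, a log2 change of -0.59 (SE 0.04, adjusted p = 3.58e-07). Scd2 was not called at 1 d against 6 h, a log2 change of 0.06 with a 95% confidence interval of -0.05 to 0.16 (adjusted p = 0.284), and rose at 4 d against 1 d, a log2 change of 0.32 (SE 0.07, adjusted p = 0.00158), so the desaturases changed in opposite directions at 4 d against 1 d. Settings under which Scd1 was called at the earlier step include limma-voom (adjusted p = 0.0349), median-of-ratios scaling (0.0193) and leaving out 1 d label replicate 4 (0.0356) or 6 h label replicate 2 (0.0171), and its sign turned with library sizes from all reads (-0.03).

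Acaca was not called at either step, a log2 change of 0.02 with a 95% confidence interval of -0.10 to 0.14 (adjusted p = 0.785) at 1 d against 6 h and a log2 change of 0.05 with a 95% confidence interval of -0.07 to 0.16 (adjusted p = 0.458) at 4 d against 1 d. Elovl6 was not called either, a log2 change of -0.01 with a 95% confidence interval of -0.14 to 0.13 (adjusted p = 0.912) and a log2 change of -0.02 with a 95% confidence interval of -0.18 to 0.13 (adjusted p = 0.821) at the same steps. At 1 d against 6 h, 3 of the 7 genes were called higher and 0 lower by limma, where 36.2% and 50.02% of all genes tested were. At an unadjusted p under 0.05, 0 members were lower, and limma-voom also called 0 lower. At 4 d against 1 d, 3 were higher and 1 lower, beside 20.96% and 33.3% of all genes. The members' medians were 0.10 and 0.05, and those of all genes -0.13 and -0.04. In a fit of all 8 groups, Srebf1 alone of the 7 was called at 4 d against 1 d, and Scd1, Scd2 and Fasn were not (adjusted p = 0.297, 0.347 and 0.507).

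Fatty acid oxidation genes rose in 13 of 14 at 1 d against 6 h, with 1 lower, and fell in 12 of 14 at 4 d against 1 d, with 0 higher by limma. Acaa2, a thiolase of that pathway, had 271 ± 18.9 RPKM at 1 d and 97.3 ± 2.09 RPKM at 6 h, and Pdha1, of the pyruvate dehydrogenase complex, 169 ± 4.92 RPKM at 1 d and 55.7 ± 1.86 RPKM at 6 h (adjusted p = 1.49e-11 and 1.97e-12). Nr1h3, which encodes LXR alpha, a known activator of Srebf1, had 24.3 ± 0.4005 RPKM at 4 d and 16.999 ± 1.01 RPKM at 1 d (log2 change 0.50, adjusted p = 2.33e-06), a call that ended in the fit of all groups (adjusted p = 0.0937). Acsl1, which activates fatty acids, fell to 23.2 ± 0.262 RPKM at 4 d, against 35.7 ± 1.6999 RPKM at 1 d (adjusted p = 2.94e-07, and 0.0602 in the fit of all groups). Fibre markers were higher in 10 of 10 at 1 d against 6 h, summing to 123553 to 133543 RPKM at 1 d and 65738 to 71692 RPKM at 6 h, and their part in the rise of Fasn, Acly and Srebf1 was not tested.

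The isolation label, set beside the total RNA of isolated cells, was rich in Scd1 and poor in Scd2, Fasn, Acaca and Elovl6. Scd1 stood at 40.1, 115, 128 and 49.1 RPKM in the isolation label and at 14.2, 14.1, 16.7 and 15.4 RPKM in isolated cells, 4.75-fold higher, a log2 change of 2.25 (SE 0.35, adjusted p = 0.000479). Replicates 2 and 3 of the isolation label lay well above replicates 1 and 4, and all 4 lay above every isolated cell library. Acta1 split the same libraries, with 3420.0, 12818, 13575 and 4084 RPKM in replicates 1 to 4, and so did the summed adipocyte markers, with 2413, 6066, 6609 and 2801 RPKM. In isolated cells Acta1 ran from 22.4 to 97.1 RPKM and the adipocyte sum from 95.7 to 129 RPKM. Of these lists, 10 of 10 fibre markers and 9 of 10 adipocyte markers were higher in the isolation label, and 7 of 8 satellite cell markers were lower. Their part in the Scd1 difference was not tested. No pull-down of RNA without label is among the libraries, so how much of the isolation label was unlabelled RNA was not tested either.

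Scd2 had 13.4, 13.03, 10.2 and 16.7 RPKM in the isolation label and 32.5, 35.6, 34.6 and 33.3 RPKM in isolated cells, 2.53-fold lower, a log2 change of -1.34 (SE 0.15, adjusted p = 5.33e-05). Fasn had 14.99, 15.3, 15.3 and 17.005 RPKM in the isolation label and 30.9, 30.2, 33.3 and 32.2 RPKM in isolated cells, 1.99-fold lower, a log2 change of -0.995 (SE 0.10, adjusted p = 2.77e-05). Both groups were tight for Fasn and far apart, and the pairs of libraries that Scd1 split were not split by Fasn. Acaca fell to 1.42 ± 0.217 RPKM in the isolation label, against 2.93 ± 0.214 RPKM in isolated cells, a log2 change of -0.84 (SE 0.17, adjusted p = 0.00208), and Elovl6 to 2.29 ± 0.266 RPKM, against 3.88 ± 0.113 RPKM in isolated cells, a log2 change of -0.65 (SE 0.16, adjusted p = 0.00568). Acly, with 11.9, 21.98, 22.3 and 17.3 RPKM in the isolation label and 17.5 to 19.3 RPKM in isolated cells, was not called, a log2 change of -0.04 with a 95% confidence interval of -0.47 to 0.39 (adjusted p = 0.868). Srebf1, with 9.601, 9.78, 8.1001 and 13.1 RPKM in the isolation label and 10.2 to 11.2 RPKM in isolated cells, was not called either, a log2 change of -0.09 with a 95% confidence interval of -0.44 to 0.26 (adjusted p = 0.643). With library sizes from all reads, which moved the median of all genes by -0.62, both were called lower (log2 change -0.73 and -0.77). With the same sizes Scd1 was 1.57, Scd2 -2.04, Fasn -1.69, Acaca -1.49 and Elovl6 -1.31, all still called.

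Of the 7 genes, 1 was called higher and 4 lower, where 29.8% and 29.7% of all genes tested were. The members' median was -0.65, beside -0.07 for all genes. Carbon and NADPH supply genes were higher in 7 of 8, among them Me1, the malic enzyme that yields NADPH for fat synthesis, with 17.5 ± 11.2 RPKM in the isolation label and 1.27 ± 0.212 RPKM in isolated cells (log2 change 3.11, adjusted p = 0.000208). Thrsp had 75.4 ± 44.03 RPKM in the isolation label and 4.62 ± 0.3599 RPKM in isolated cells (log2 change 3.68, adjusted p = 3.93e-05). Of 22 cholesterol synthesis genes 9 were lower and 7 higher. The synthase Hmgcs1 had 18.8 ± 3.07 RPKM in the isolation label and 45.4 ± 1.85 RPKM in isolated cells (log2 change -1.27, adjusted p = 3.28e-05), and Insig1, a feedback gene of the SREBP pathway, 16.7 ± 4.59 RPKM in the isolation label and 39.7 ± 2.02 RPKM in isolated cells (log2 change -1.27, adjusted p = 0.000291).

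**Figure D4:**
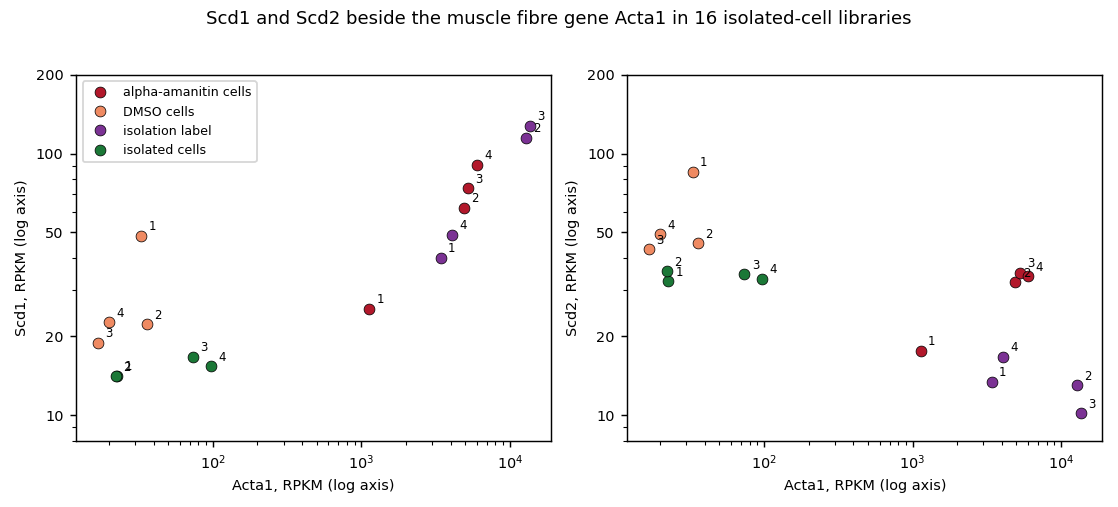
Scd1 (left) and Scd2 (right) beside Acta1, all in RPKM on log axes, in the 16 libraries of alpha-amanitin cells, DMSO cells, the isolation label and isolated cells, numbered by replicate. Scd1 is highest in the isolation label libraries with most Acta1 (128 and 115 RPKM in replicates 3 and 2). Scd2 is lower in every alpha-amanitin, isolation label and isolated cell library than in every DMSO library.

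The 6 h label, set beside the isolation label of about the same length, held more Srebf1, Fasn and Acaca and less Scd2. The groups differ in source as well, muscle in the animal for the 6 h label and purified cells for the isolation label. Srebf1 had 17.1 to 18.002 RPKM in the 6 h label and 8.1001 to 13.1 RPKM in the isolation label, 1.72-fold higher, a log2 change of 0.79 (SE 0.15, adjusted p = 0.00182). Fasn had 19.2 to 21.4 RPKM in the 6 h label and 14.99 to 17.005 RPKM in the isolation label. Its log2 change was 0.38 (SE 0.11, adjusted p = 0.0141), close to the median of all genes tested, 0.31. Acaca had 2.22 to 2.58 RPKM in the 6 h label and 1.25 to 1.74 RPKM in the isolation label, a log2 change of 0.60 (SE 0.15, adjusted p = 0.00731). The 6 h label lay above the isolation label in every library for these 3 genes. Scd2 had 7.83 to 8.73 RPKM in the 6 h label and 10.2 to 16.7 RPKM in the isolation label, 1.55-fold lower, a log2 change of -0.63 (SE 0.16, adjusted p = 0.007). Scd1 had 129 to 147 RPKM in the 6 h label and 40.1 to 128 RPKM in the isolation label, a log2 change of 0.90 (SE 0.35, adjusted p = 0.0491), which was lost on leaving out any 1 of 6 libraries (all 4 of the 6 h label and isolation label replicates 1 and 4, adjusted p = 0.0815 to 0.129). The Scd1 call also ended with a pseudocount of 1 (adjusted p = 0.0502), with no filter on low values (0.0561) and with median-of-ratios scaling (0.0662).

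Acly was not called, a log2 change of 0.28 with a 95% confidence interval of -0.17 to 0.73 (adjusted p = 0.247), nor was Elovl6, a log2 change of 0.22 with a 95% confidence interval of -0.11 to 0.54 (adjusted p = 0.212). Of the 7 genes, 4 were called higher and 1 lower, where 38.5% and 24.4% of all genes tested were. The members' median was 0.38, beside 0.31 for all genes. With library sizes from all reads, which moved the median of all genes by -0.49, only Scd2 of the 7 was called, Fasn turned to -0.16, and Scd1, Acaca and Srebf1 stood at 0.35, 0.16 and 0.25. The Fasn call also ended without 6 h label replicate 2 or 3 (adjusted p = 0.0532 and 0.0572). Cholesterol synthesis genes were lower in 15 of 22 and higher in 2, with Fdps at 23.9 ± 1.62 RPKM in the 6 h label and 111 ± 17.7 RPKM in the isolation label (log2 change -2.18, adjusted p = 3.23e-06). Srebf2 had 5.62 ± 0.265 RPKM in the 6 h label and 20.6 ± 6.91 RPKM in the isolation label (log2 change -1.73, adjusted p = 0.000152), the opposite sign to Srebf1. Of 19 regulators 10 were higher and 3 lower, among them Mlxipl, the carbohydrate-responsive activator ChREBP of Fasn and Acly, with 18.1 ± 1.15 RPKM in the 6 h label and 5.01 ± 0.4501 RPKM in the isolation label (log2 change 1.76, adjusted p = 4.73e-06). Lpin1, a phosphatidate phosphatase of triglyceride assembly, had 108 ± 9.301 RPKM in the 6 h label and 11.5 ± 4.37 RPKM in the isolation label (log2 change 3.26, adjusted p = 8.07e-06). Fibre markers were higher in 9 of 10 and satellite cell markers lower in 8 of 8, and their part in these differences was not tested.

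In the inhibition experiment, replicate 1 of both groups stood apart in the levels of most of the 7 genes. Across 13710 genes, alpha-amanitin replicate 1 correlated with the other alpha-amanitin libraries at r of 0.884 to 0.896 and with the DMSO libraries at 0.928 to 0.949, while the other 3 correlated with each other at up to 0.997. It had the lowest Scd1, Scd2, Fasn, Acly, Srebf1 and Elovl6 of its group. DMSO replicate 1 had the highest level of all 7 genes in its own group. Across the same 13710 genes, DMSO replicate 1 correlated with the other DMSO libraries at 0.976 to 0.982. With the alpha-amanitin libraries it correlated at 0.887 to 0.928, so by this measure it lay nearer its own group. The scaling factor of alpha-amanitin replicate 1 was 1.54, against 0.917 to 0.98 in the others of its group. That of DMSO replicate 1 was 1.25, against 1.60 to 1.66 in the others. A higher factor lowers every RPKM of a library, and its part in these levels was not tested. Each result is therefore given with all libraries and without replicate 1 of either group, a choice made after seeing the data.

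Scd2 and Acaca were lower in alpha-amanitin cells, with and without these libraries. Scd2 had 17.7, 32.2, 35.1 and 33.9 RPKM in alpha-amanitin cells and 85.3, 45.4, 43.2 and 49.1 RPKM in DMSO cells, 1.85-fold lower, a log2 change of -0.89 (SE 0.29, adjusted p = 0.0338). The groups did not overlap, but the call ended without any 1 of the other 7 libraries beside alpha-amanitin replicate 1 (adjusted p = 0.0534 to 0.0701), and without both replicates 1 it was -0.44 (adjusted p = 0.000251). Acaca had 2.25, 1.31, 1.97 and 2.01 RPKM in alpha-amanitin cells and 3.78, 3.204, 3.19 and 3.15 RPKM in DMSO cells, 1.62-fold lower, a log2 change of -0.70 (SE 0.16, adjusted p = 0.00943), and -0.72 without both (adjusted p = 0.000355). Scd1 had 25.6, 62.1, 73.6 and 90.6 RPKM in alpha-amanitin cells and 48.5, 22.3, 18.96 and 22.6 RPKM in DMSO cells. With all libraries the groups overlapped and it was not called, a log2 change of 1.11 with a 95% confidence interval of 0.19 to 2.04 (adjusted p = 0.0514). Without both replicates 1 it was higher, 1.79 (adjusted p = 5.59e-07), and it was also called without alpha-amanitin replicate 1 alone (6.25e-05) or DMSO replicate 1 alone (0.0253).

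Acly had 23.2, 30.8, 38.3 and 44.7 RPKM in alpha-amanitin cells and 35.2, 22.5, 21.03 and 22.6 RPKM in DMSO cells, a log2 change of 0.42 with a 95% confidence interval of -0.14 to 0.97 (adjusted p = 0.177), and 0.75 without both replicates 1 (adjusted p = 0.000175). Srebf1 had 9.81, 18.2, 20.2 and 20.2 RPKM in alpha-amanitin cells and 19.6, 11.96, 11.5 and 12.9 RPKM in DMSO cells, a log2 change of 0.26 with a 95% confidence interval of -0.33 to 0.85 (adjusted p = 0.418), and 0.67 without both (adjusted p = 1.47e-05). For both genes the groups overlapped only through replicate 1 of either group. Without alpha-amanitin replicate 1 alone, Acly and Srebf1 were called higher too (adjusted p = 0.0111 and 0.0153). Fasn, with 26.6, 33.9, 42.9 and 47.6 RPKM in alpha-amanitin cells and 56.4, 36.3, 33.2 and 36.3 RPKM in DMSO cells, was not called, a log2 change of -0.10 with a 95% confidence interval of -0.65 to 0.44 (adjusted p = 0.729), and turned to 0.22 without both (adjusted p = 0.0971). Elovl6, with 3.08, 5.09, 4.98 and 4.97 RPKM in alpha-amanitin cells and 7.37, 4.41, 4.001 and 4.34 RPKM in DMSO cells, was not called, a log2 change of -0.12 with a 95% confidence interval of -0.61 to 0.36 (adjusted p = 0.638), and turned to 0.22 without both (adjusted p = 0.0177). The inhibitor comparison thus gave 2 of 7 called genes with all libraries and 6 of 7 without both replicates 1. The share of all genes called without both is not given here, so the 6 of 7 cannot be read as particular to these genes.

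With all libraries, 0 of the 7 genes were called higher by limma and 2 lower, where 33.9% and 10.3% of all genes tested were. At an unadjusted p under 0.05, 1 was higher (Scd1), and limma-voom called 1 higher. The members' median log2 change was -0.10, beside 0.28 for all genes. RNA polymerase II does not transcribe mitochondrially encoded genes. With library sizes from these genes the median of all genes moved by -1.34, and now stood at -1.06. All but Scd1 of the 7 were then called lower, and Scd1 turned to -0.38 (adjusted p = 0.105). With that median most genes were lower too, and the share called is not given here, so this count is not particular to the 7. Fibre markers were higher in 10 of 10 and adipocyte markers in 9 of 9 tested. Acta1 stood at 1132, 4929, 5252 and 5979 RPKM in alpha-amanitin cells and 33.05, 35.8, 16.8 and 19.96 RPKM in DMSO cells, and the adipocyte markers summed to 478, 1628, 1772 and 1791 RPKM in alpha-amanitin cells and 225 to 268 RPKM in DMSO cells. The alpha-amanitin library with least Acta1 also had least Scd1, and the part of these markers' cells was not tested.

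Of the cholesterol genes, which share SREBP regulation, 6 of 22 were lower and 4 higher in alpha-amanitin cells. Hmgcs1 had 35.8 ± 6.58 RPKM in alpha-amanitin cells and 87.04 ± 21.2 RPKM in DMSO cells (log2 change -1.26, adjusted p = 0.00472). Insig1 had 33.1 ± 6.97 RPKM in alpha-amanitin cells and 60.96 ± 16.6 RPKM in DMSO cells (log2 change -0.86, adjusted p = 0.0192), which was no longer called when alpha-amanitin replicate 2 was left out (adjusted p = 0.0529). Fatty acid oxidation genes were higher in 13 of 14, and carbon and NADPH supply genes in 5 of 8. Me1 had 10.1 ± 4.37 RPKM in alpha-amanitin cells and 1.11 ± 0.194 RPKM in DMSO cells (log2 change 2.60, adjusted p = 0.000998).

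**Figure D5:**
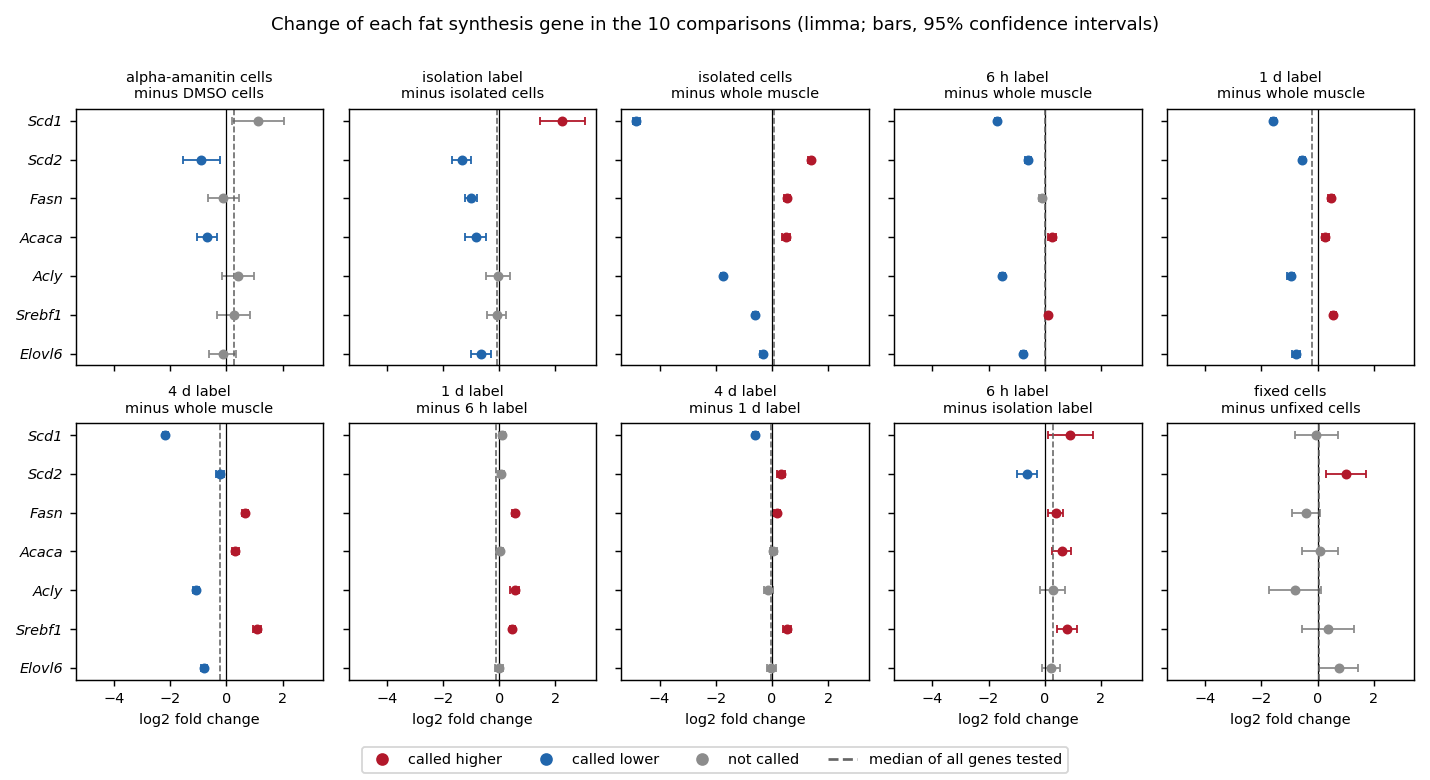
Log2 fold change of each gene in the 10 comparisons with 95% confidence intervals from limma, red for called higher, blue for called lower and grey for not called, and a dashed line at the median of all genes tested. Scd1 ranges from -4.83 in isolated cells against whole muscle to 2.25 in the isolation label against isolated cells.

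Perfusion with paraformaldehyde before isolation went with a higher level of Scd2. Scd2 had 124, 121, 71.2 and 50.2 RPKM in fixed cells (replicates 1, 3, 4 and 5) and 44.3, 44.6 and 38.99 RPKM in unfixed cells, 1.999-fold higher, a log2 change of 1.000 (SE 0.32, adjusted p = 0.0478). The groups did not overlap, but the call ended without fixed replicate 1 or 3 (adjusted p = 0.0804 and 0.112), without any 1 of the 3 unfixed libraries (0.104 to 0.155), and with median-of-ratios scaling (0.0676). Scd1 had 39.4, 24.1, 24.1 and 12.98 RPKM in fixed cells and 27.4, 19.2 and 26.9 RPKM in unfixed cells and was not called, a log2 change of -0.05 with a 95% confidence interval of -0.82 to 0.72 (adjusted p = 0.937).

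Elovl6 had 11.6, 17.3, 13.9 and 8.02 RPKM in fixed cells and 9.52, 5.73 and 6.48 RPKM in unfixed cells, a log2 change of 0.75 with a 95% confidence interval of 0.05 to 1.45 (adjusted p = 0.116). Fasn had 38.2, 33.6, 28.9 and 23.2 RPKM in fixed cells and 39.8, 40.2 and 42.6 RPKM in unfixed cells, all fixed libraries below all unfixed ones, but was not called, a log2 change of -0.42 with a 95% confidence interval of -0.91 to 0.07 (adjusted p = 0.197). Srebf1 spread widely among fixed cells, with 40.5, 24.2, 13.96 and 10.57 RPKM there and 17.4, 13.97 and 13.7 RPKM in unfixed cells, a log2 change of 0.38 with a 95% confidence interval of -0.54 to 1.302 (adjusted p = 0.541). Elovl6 and Srebf1 overlapped between groups, and Fasn did not. Acly had 42.2, 14.3, 11.6 and 12.2 RPKM in fixed cells and 34.7, 24.9 and 32.2 RPKM in unfixed cells, a log2 change of -0.80 with a 95% confidence interval of -1.74 to 0.14 (adjusted p = 0.197). Fixed replicate 1 lay far above the other 3 for Acly, and without it Acly was called lower, -1.23 (adjusted p = 0.00472). Acaca had 2.75 to 4.32 RPKM in fixed cells and 3.08 to 3.39 RPKM in unfixed cells, a log2 change of 0.08 with a 95% confidence interval of -0.55 to 0.71 (adjusted p = 0.867).

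Of the 7 genes, 1 was called higher and 0 lower by limma, where 12.2% and 10.8% of all genes tested were, and 0 were lower at an unadjusted p under 0.05 or by limma-voom. The members' median was 0.08, beside 0.07 for all genes. Cholesterol synthesis genes were lower in 9 of 22 and higher in 1, with Sqle, a mono-oxygenase of that pathway, at 4.399 ± 0.553 RPKM in fixed cells and 25.2 ± 5.08 RPKM in unfixed cells (log2 change -2.38, adjusted p = 0.000258), and Hmgcs1 at 22.2 ± 2.71 RPKM in fixed cells and 63.9 ± 7.502 RPKM in unfixed cells (log2 change -1.50, adjusted p = 0.000773). Usf1, a factor known to bind the Fasn promoter, had 20.4 ± 5.31 RPKM in fixed cells and 5.26 ± 1.07 RPKM in unfixed cells (log2 change 1.84, adjusted p = 0.00172). Both groups were extracted with the same kit for fixed tissue, per the labels' protocols. The adipocyte markers summed to 84.1 to 241 RPKM in fixed cells and 329.9 to 1131 RPKM in unfixed cells. Adipoq, at 0.126 to 1.55 RPKM in fixed and 0.13 to 0.958 RPKM in unfixed cells, overlapped between groups. Plin1 overlapped too, at 0.227 to 1.82 RPKM in fixed and 0.207 to 0.391 RPKM in unfixed cells. Pax7 had 47.8 to 84.9 RPKM in fixed cells and 23.9 to 38.6 RPKM in unfixed cells. The satellite cell markers together summed lower, to 442 to 859 RPKM in fixed cells and 879 to 1234 RPKM in unfixed cells. Endothelial markers were lower in 7 of 8 and fibre markers in 4 of 9. The part of all these markers in the Scd2 difference was not tested.

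As a description, the genes whose 8 group means in the labelling table ran most like those of each member were ranked by Pearson's r over 8558 genes that reached 5 RPKM in a group. For Scd2 these were Rel (r = 0.987), Idi1 (0.987) and Hmgcs1 (0.984), the last 2 of which are cholesterol synthesis genes. For Srebf1 they were Mlec (0.961), Plec (0.955) and Acsf3 (0.945), and for Fasn Gfpt1 (0.915), Stt3b (0.909) and Tsc2 (0.901). For Scd1 they were Ccndbp1, Pon2 and Ube2k (0.992 to 0.991), and for Acly Cbfb (0.995), Exoc3 (0.9753) and Ergic2 (0.973). For Acaca they were Ltn1 (0.953), Trip12 (0.946) and Rc3h2 (0.919), and for Elovl6 Enpp5 (0.983), Tex10 (0.976) and Gpbp1 (0.972). The 8 means share libraries' scaling and the contrast of cells with tissue, so a high r is easily reached. Among the 7 genes themselves, the highest r was between Scd1 and Acly (0.717) and the lowest between Scd1 and Scd2 (-0.773).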

How the data were processed

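The authors deposited 2 tables of RPKM, reads per length of gene model and size of library, 1 for 32 libraries and 1 for the 7 of the fixation experiment. Per the labels' protocols, RNA was reverse-transcribed from oligo(dT) with the SMARTseq v4 kit and sequenced as 101 bp read pairs. The submitters' processing notes name Trim Galore, STAR, featureCounts, Subread, edgeR and the mm10 genome, with no versions. Use of strand in counting is not given in the sources read. RPKM times length over 1 factor per library gave whole reads within 0.1 for all values, so reads could be recovered.

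Each comparison was fitted with limma 3.58.1 in R 4.3.3 on log2(RPKM + 0.5), with a mean-variance trend, over genes with at least 1 RPKM in at least 3 of the libraries compared. P-values were adjusted by Benjamini-Hochberg over all these genes, and an adjusted p under 0.05 was called. The fit was tested on simulated data. Python 3.11.15 served for the other steps. The planned count test was not run because the tables hold RPKM. In its place, limma-voom was run on the recovered reads, a choice made after seeing the data. Other alternatives were a pseudocount of 1, no filter, median-of-ratios factors, library sizes from all reads, 1 fit of all groups, a replicate block and leaving out each library.

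The 7 genes and the lists of related genes and cell markers were chosen with earlier results of these data known. Other named genes come from those with the smallest adjusted p in each list of related genes, at most 2 higher and 2 lower per comparison. Likeness is Pearson's r of group means of log2(RPKM + 0.5). Library depth was counted from recovered reads, and PCR copies were not told apart, so counts are not numbers of independent molecules.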

Additional observations from a re-analysis of the deposited data

Results flagged for a closer look

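In 13 of 63 sets of 4 libraries, the highest or lowest library stood apart from the other 3 beyond Dixon's 95% critical value, where chance gives about 1 in 20. DMSO replicate 1 accounted for 6 of these, each time as the highest, and the values of 1 library share its scaling factor. It had 48.5 RPKM of Scd1 (others 18.96 to 22.6), 85.3 RPKM of Scd2 (43.2 to 49.1), 56.4 RPKM of Fasn (33.2 to 36.3), 35.2 RPKM of Acly (21.03 to 22.6), 7.37 RPKM of Elovl6 (4.00 to 4.41) and 3.78 RPKM of Acaca (3.15 to 3.20). Alpha-amanitin replicate 1 was low, with 17.7 RPKM of Scd2 (others 32.2 to 35.1) and 3.08 RPKM of Elovl6 (4.97 to 5.09). Acly stood high in fixed replicate 1 at 42.2 RPKM (11.6 to 14.3) and in 1 d label replicate 1 at 36.9 RPKM (29.8 to 30.8). Fasn stood high in isolation label replicate 4 at 17.005 RPKM (15.0 to 15.3). Scd1 stood low in 1 d label replicate 4 at 142 RPKM, against 149 to 151 RPKM in the others, and Elovl6 in whole muscle replicate 2 at 4.90 RPKM, against 5.02 RPKM in each of the others.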

How the results depend on the processing

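Of 47 member results that were called, 33 kept their direction and call under every alternative run. Of the 23 that were not called, only 5 stayed the same under every alternative. Of 1057 alternative values for the 7 genes, 956 kept direction and call, 40 lost a call, 24 gained one and 37 turned in sign. The count of called genes in alpha-amanitin against DMSO cells, 2 of 7, was 4 with library sizes from all reads or all groups in 1 fit, 6 with sizes from mitochondrially encoded genes, 1 with a replicate block and 1 to 6 without single libraries. It was 1 rather than 4 for the 4 d against the 1 d label with all groups in 1 fit. For the 6 h against the isolation label it was 1 rather than 5 with all reads, and 3 to 5 without single libraries. In fixed against unfixed cells it was 0 rather than 1 with median-of-ratios factors, and 0 to 1 without single libraries. The shares of all genes called under these alternatives are not given here, so these counts cannot be read as particular to the 7 genes.

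Values that turned in sign are log2 changes, and the cause was not tested. In alpha-amanitin against DMSO cells, mitochondrial sizes gave -0.38 for Scd1, -1.06 for Acly and -1.20 for Srebf1, and all reads gave -0.092 for Acly and -0.25 for Srebf1. All reads gave 0.96 for Srebf1 and 1.13 for Elovl6 in isolated cells against whole muscle, and 0.26 for Fasn in the 6 h label against whole muscle, where median-of-ratios factors gave -0.12 for Srebf1. In the 1 d against the 6 h label, all reads gave -0.034 for Scd1, -0.071 for Scd2 and -0.093 for Acaca, and median-of-ratios factors 0.016 for Elovl6. In the 6 h against the isolation label, all reads gave -0.16 for Fasn, -0.27 for Acly and -0.25 for Elovl6. In fixed against unfixed cells, all reads gave 0.0067 for Scd1, and the replicate block 0.18 for Scd1 and -0.076 for Acaca.

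Without single libraries, Fasn ran from -0.23 to 0.064 and Elovl6 from -0.21 to 0.060 in alpha-amanitin against DMSO cells. Without replicate 1 of both groups they were 0.22 and 0.22. Acly ran from -0.15 to 0.15 and Srebf1 from -0.21 to 0.0071 in the isolation label against isolated cells. In the 1 d against the 6 h label Acaca ran from -0.013 to 0.045 and Elovl6 from -0.056 to 0.041, and in the 4 d against the 1 d label Elovl6 from -0.070 to 0.027. In fixed against unfixed cells Scd1 ran from -0.29 to 0.23 and Acaca from -0.022 to 0.17.

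The replicate numbers were not taken as pairing the libraries: in none of the 10 comparisons did every same-numbered pair correlate over 0.1 in its deviations, and in alpha-amanitin against DMSO cells these ran from -0.59 to -0.11. In no comparison of 4 pairs did every library correlate best with its own number. As a hint from the data, 3 of 4 did in isolated cells, the 6 h label and the 4 d label against whole muscle and in the 1 d against the 6 h label. With the block, the calls of Scd2 and Insig1 in alpha-amanitin against DMSO cells had adjusted p of 0.125 and 0.102. The block also gave 0.0705 for the call of Fasn in the 6 h against the isolation label. Scd1 in the 1 d against the 6 h label was called with it (0.0459). The planned edgeR test was not run, since the tables hold RPKM. Of the 28 results for other named genes, 419 of 423 alternative values kept direction and call, and 4 lost the call (Insig1 with the block and without 1 library, and Nr1h3 and Acsl1 with all groups in 1 fit). The isolation label, with the fewest reads, limits the comparisons that use it.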

Other observations

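Each of 2 members has a paralog that was read beside it. Acacb made up 71.1 ± 9.93% of the summed Acaca and Acacb level in alpha-amanitin cells and 58.1 ± 2.41% in DMSO cells. It made up 87.2 ± 0.607%, 90.4 ± 0.573% and 88.03 ± 0.474% in the 6 h, 1 d and 4 d labels, 70.3 ± 5.9996% in the isolation label, 58.2 ± 2.098% in isolated cells and 81.2 ± 1.17% in whole muscle (mean ± SD, n = 4 each). Srebf2 made up 79.4 ± 2.41% of the summed Srebf1 and Srebf2 level in alpha-amanitin cells and 78.04 ± 1.22% in DMSO cells. It made up 24.2 ± 0.554%, 15.5 ± 0.163% and 12.997 ± 1.08% in the 6 h, 1 d and 4 d labels, 66.3 ± 4.34% in the isolation label, 79.3 ± 0.904% in isolated cells and 22.7 ± 1.29% in whole muscle. The isolated cell groups thus read mainly Srebf2, and muscle and the in vivo labels mainly Srebf1. The desaturase genes Scd3 and Scd4 reached at most 1.29 and 1.64 RPKM in a library of the labelling table, both in the isolation label.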
